A study of Homo sapiens with 40 samples.

Results

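The genes described here were silent in 1 and well expressed in the other 5 of 6 human cell lines from T-ALL, the acute lymphoblastic leukaemia whose cells are immature T cells. The members were chosen from levels in CPM, each gene's count divided by the summed count of its library, multiplied by 1e6 and averaged over the 4 libraries of a line. A gene was taken when its mean was below 0.5 CPM in exactly 1 line and at least 5 CPM in each of the other 5, and T-cell receptor segments were to be dropped, of which none met the rule. Of 62754 genes in the table, 327 met it. Of these, 8 lie on chromosome Y and are only counted, and the remaining 319 are described: 90 silent in KARPAS-45, 68 in TALL-1, 66 in ALL-SIL, 43 in HPB-ALL, 32 in LOUCY and 20 in DND-41. The same table held 8042 genes at or above 5 CPM in all 6 lines.

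The study asked what the RNA-binding protein QKI does in T-ALL, and QKI is itself a member, silent in LOUCY. ALL-SIL, DND-41, HPB-ALL, KARPAS-45, LOUCY and TALL-1 are established lines, each from a single leukaemia, and were sequenced without treatment as polyadenylated RNA, 4 libraries each. HPB-ALL and KARPAS-45 grew in 20% serum and the others in 10%. The other 16 libraries are a knockdown of QKI in Jurkat, a widely used T-ALL line, with an siRNA given by electroporation (total RNA; 4 libraries, and 4 with a non-targeting siRNA), and a knockdown in cells labelled HPB-ALL with a viral short hairpin RNA (4 libraries, and 4 with a non-targeting hairpin; polyadenylated RNA, stranded kit). Knockdown replicates are described as biological; nothing says that the libraries of an untreated line came from separate cultures, so their spread may be technical.

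A cell line descends from the cells of a single patient, and a gene that its relatives express can be shut off in it by loss of the DNA, by methylation of a promoter rich in CG dinucleotides, by repressive chromatin or by absence of an activating factor. Read counts cannot tell these states apart, and none of them was tested here. T-ALL cells are arrested at stages of thymocyte development: LOUCY is known as a line of the early T-cell precursor kind, while Notch signalling, which commits thymocytes to the T lineage, is active in many T-ALL cells and drives genes such as NOTCH3, DTX1 and MYC. Genes that lie next to each other can share a promoter, a chromatin domain or a deleted segment.

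The libraries of the lines held 44.1 to 84.0 M counts (1e6) and the 4 libraries of a line 191.5 to 318.9 M together. A count of 0 allows up to 3 counts in a library, and this covers counting error only. Of 12 T-lymphocyte markers, 12 reached 1 CPM in KARPAS-45, HPB-ALL, TALL-1 and ALL-SIL, 11 in DND-41 (CD5 was missing) and 10 in LOUCY (TCF7 was below 0.5). Fibroblast and epithelial markers summed to at most 12.5 CPM in any library. Myeloid markers summed to 67.2 to 104 CPM in LOUCY and to at most 36.2 in the other lines, and B-cell markers to 1629 to 2217 CPM in LOUCY, 2230 to 2440 in DND-41 and 1.64 to 2.72 in KARPAS-45. The knockdown libraries labelled HPB-ALL did not match untreated HPB-ALL: of the 43 genes silent in untreated HPB-ALL, none was below 0.5 CPM in their controls and 37 were at or above 5. The knockdown samples are therefore named by their label only.

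Silence was deep in most cases. The median level in the silent line was 0.0153 CPM, 242 of 319 genes lay below 0.1 CPM, and 76 had no read in any of the 4 libraries. In 299 genes every library of the silent line was below 0.5 CPM, and in 275 every library of the other 5 lines was at or above 5. The lowest of the 5 expressing lines stood at a median of 12.4 CPM. Just inside the lower limit were ENSG00000248015 (0.483 CPM in HPB-ALL) and SUSD1 (0.488 in TALL-1), and just outside it LRRC1 (0.501) and CHCHD10 (0.509). Just inside the upper limit were VAV3 (5.03 CPM in its lowest expressing line) and RHOU (5.05), and just outside it ENSG00000230526 (4.96) and RPS27AP16 (4.97). These levels chose the members and carry no test.

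**Figure D1:**
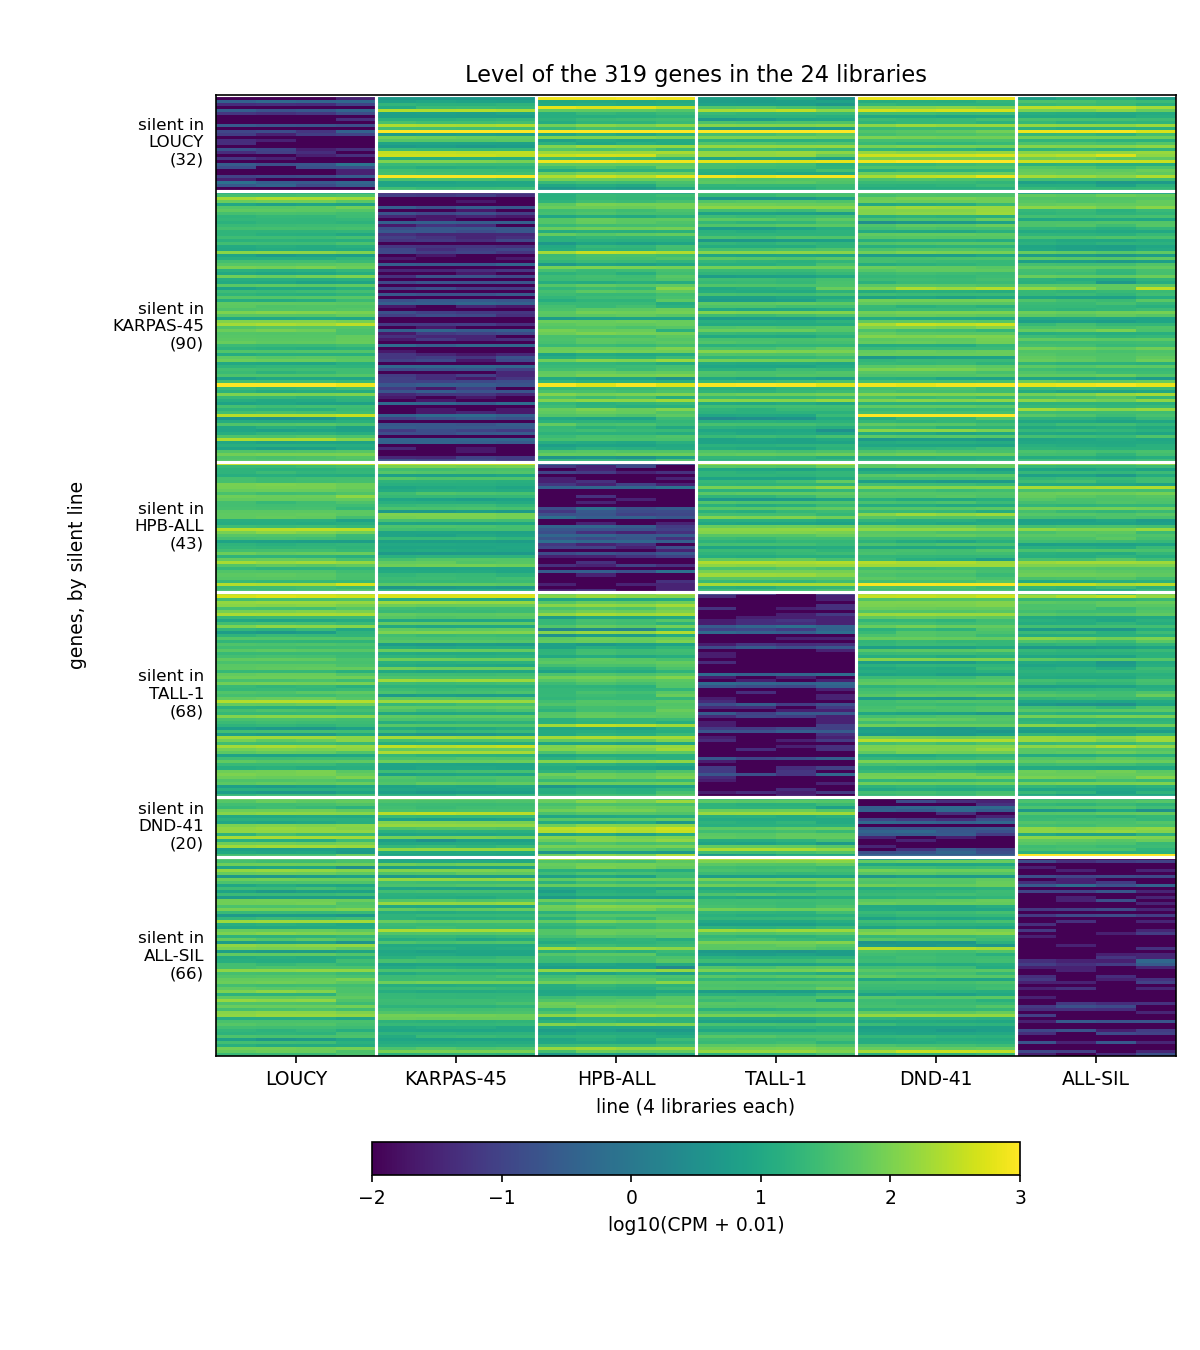
Level of the 319 genes, in rows grouped by the line in which they were silent, in each of the 24 libraries, in columns grouped by line (colour: log10 of CPM + 0.01). Each group is dark in its own line alone, by the rule; KARPAS-45 has the largest group (90 genes) and DND-41 the smallest (20).

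Most of the genes code for protein (291 of the 319), and 22 are other gene types such as long noncoding RNAs. They lay on all chromosomes from 1 to 22 and X. Among genes expressed in at least 5 lines, 3.48% were members, with the highest share on chromosome 18 (5.65%; 5 of its 7 members were silent in ALL-SIL) and the lowest on chromosome 21 (1.06%). KARPAS-45 supplied 8 of the 14 members on chromosome X and 9 of the 17 on chromosome 11, and HPB-ALL 6 of the 12 on chromosome 20. Symbols of zinc-finger genes made up 7.84% of the members (25 of 319) and 4.61% of the 9045 genes expressed in at least 5 lines.

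The start regions of the members are shown because several of them were read beside their neighbours. RefSeq promoters (GRCh38.p14, 250 bases before to 50 after the start) could be matched for 248 of the 319 genes. Where a gene had several RefSeq starts, the start nearest the GENCODE 29 gene start was used, and its other starts are not shown. A promoter was called CG-rich when GC content was at least 55% and the dinucleotide CG, which reads the same on both strands, occurred at 0.6 or more of the frequency its bases give. By this measure 72.2% of the members' promoters were CG-rich, against 82.0% of those of genes at or above 5 CPM in all 6 lines and 55.2% of those of all genes with an entry. The share was 83.3% for genes silent in TALL-1, 79.4% for HPB-ALL, 76.8% for ALL-SIL, 65.2% for LOUCY, 62.2% for KARPAS-45 and 61.5% for DND-41. The 100 bases before the start of 8 genes show the range, from 21 CG dinucleotides at SLK to 0 at IFI44, with each CG in capitals and the sequence on the gene's own strand. The positions are chr19:15200996-15201095 (NOTCH3, minus strand), chr17:16381190-16381289 (UBB, plus), chr10:103967040-103967139 (SLK, plus), chr1:78649689-78649788 (IFI44, plus), chr19:12791386-12791485 (JUNB, plus), chr2:37324834-37324933 (PRKD3, minus), chr4:158768926-158769025 (FNIP2, plus) and chr9:21995325-21995424 (CDKN2A, minus).
NOTCH3: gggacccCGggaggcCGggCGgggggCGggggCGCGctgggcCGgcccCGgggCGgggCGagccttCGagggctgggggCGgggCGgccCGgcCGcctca
UBB: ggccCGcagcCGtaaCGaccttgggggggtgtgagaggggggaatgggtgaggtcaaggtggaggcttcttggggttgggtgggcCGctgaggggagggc
SLK: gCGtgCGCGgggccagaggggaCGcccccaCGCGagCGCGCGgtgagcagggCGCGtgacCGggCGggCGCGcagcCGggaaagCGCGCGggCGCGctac
IFI44: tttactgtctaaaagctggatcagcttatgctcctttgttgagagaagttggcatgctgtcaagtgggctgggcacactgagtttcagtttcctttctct
JUNB: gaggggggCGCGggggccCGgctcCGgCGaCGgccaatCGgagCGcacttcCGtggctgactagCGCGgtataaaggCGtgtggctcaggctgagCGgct
PRKD3: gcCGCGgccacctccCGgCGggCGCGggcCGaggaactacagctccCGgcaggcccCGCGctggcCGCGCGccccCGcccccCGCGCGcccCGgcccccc
FNIP2: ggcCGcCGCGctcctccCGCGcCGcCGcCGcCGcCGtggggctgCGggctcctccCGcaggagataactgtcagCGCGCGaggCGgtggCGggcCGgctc
CDKN2A: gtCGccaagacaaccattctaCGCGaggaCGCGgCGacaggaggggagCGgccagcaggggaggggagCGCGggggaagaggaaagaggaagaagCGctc
Some members share a start region with an oppositely oriented gene, and these stretches are shown because the 2 genes of such a pair were compared below. The whole stretch between the RefSeq starts of NBEAL1 and WDR12 is 80 bases long (chr2:203014799-203014878), that between TK1 and AFMID 83 bases (chr17:78187234-78187316) and that between ZNF597 and NAA60 57 bases (chr16:3443554-3443610). They are printed on the strand of the gene named first.
NBEAL1 to WDR12: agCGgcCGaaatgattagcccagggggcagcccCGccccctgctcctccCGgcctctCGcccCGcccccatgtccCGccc
ZNF597 to NAA60: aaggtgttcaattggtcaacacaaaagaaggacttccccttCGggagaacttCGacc
TK1 to AFMID: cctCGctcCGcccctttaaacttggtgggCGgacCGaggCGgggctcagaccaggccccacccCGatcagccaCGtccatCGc

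In LOUCY the silent genes included a set tied to Notch signalling and T-cell identity: NOTCH3, a Notch receptor; DTX1, a Notch target that codes for the ubiquitin ligase Deltex; MYC, a growth regulator; and TCF7, a transcription factor of early T-lineage cells. NOTCH3 (ENSG00000074181.9, chromosome 19, 15159038 to 15200981, minus strand) had 0.0871, 0.119, 0.138 and 0.265 CPM in the 4 LOUCY libraries. It had 938, 924, 921 and 850 in KARPAS-45, 807, 700, 845 and 836 in TALL-1, 251, 420, 322 and 601 in HPB-ALL, 224, 354, 377 and 649 in DND-41, and 210, 184, 136 and 254 in ALL-SIL. The expressing lines therefore spanned 195.7 ± 49.4 (SD, n = 4) to 908.2 ± 39.7 CPM, and no library of theirs came near LOUCY. DTX1 had 0 counts in LOUCY and 104.6 ± 7.03 (KARPAS-45) to 981.1 ± 202.3 CPM (DND-41) elsewhere. TCF7 stood at 0.164 ± 0.136 CPM in LOUCY, against 59.8 ± 19.2 in DND-41 and 2158 ± 134.1 in HPB-ALL, the lowest and highest of the other lines. MYC had 3 counts in all 4 LOUCY libraries together (0.0138 CPM) and ran from 134.7 ± 42.7 CPM in TALL-1 to 459.0 ± 43.5 in DND-41. LUNAR1, a long noncoding RNA known as a Notch target in T-ALL, stood at 0.112 CPM in LOUCY and at 15.2 to 40.7 in the others.

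QKI (ENSG00000112531.17, chromosome 6, 163414000 to 163578596, plus strand) had 0 counts in all 4 LOUCY libraries, so its level there was under the floor of 3 counts. KARPAS-45 held 5.27, 6.46, 5.11 and 5.91 CPM, which is only just above the limit of 5. The other lines held 114, 178, 158 and 162 CPM (HPB-ALL), 163, 161, 157 and 162 (TALL-1), 92.8, 106, 99.9 and 92.2 (DND-41), and 126, 118, 123 and 148 (ALL-SIL). The order of the lines was TALL-1, HPB-ALL, ALL-SIL, DND-41, KARPAS-45 and LOUCY; the libraries of HPB-ALL overlapped those of TALL-1 and ALL-SIL, which did not overlap each other, and those of DND-41, KARPAS-45 and LOUCY overlapped none.

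Further LOUCY-silent genes were EZH2, the catalytic subunit of Polycomb repressive complex 2 (8 counts in LOUCY; 143.8 ± 17.7 to 326.2 ± 19 CPM elsewhere), and CCNC, cyclin C, a partner of the Mediator kinases (0 counts; 74.0 ± 8.98 to 105.2 ± 7.88 CPM). CD1A and CD1B present lipid antigens and mark cortical thymocytes. CD1A stood at 0.405 ± 0.162 CPM in LOUCY and at 7.07 ± 3.13 (ALL-SIL) to 385.9 ± 111.4 (HPB-ALL) elsewhere, and CD1B had 1 count in LOUCY against 5.13 ± 0.146 to 767.4 ± 58.0 CPM. MAL, a membrane protein of T-cell lipid rafts, had 0 counts in LOUCY and 21.2 to 533.2 CPM in the other lines.

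KARPAS-45 had the most silent genes, and they came from several functions. TK1, thymidine kinase of the nucleotide salvage pathway (ENSG00000167900.12, chromosome 17, 78174075 to 78187233, minus strand), had 0.0259, 0.0476, 0.0487 and 0.0265 CPM in its 4 libraries. The other libraries held 104, 101, 101 and 108 (LOUCY), 111, 86.3, 99 and 113 (HPB-ALL), 67.3, 74.1, 75.4 and 88.9 (TALL-1), 114, 115, 105 and 116 (DND-41), and 87.5, 102, 160 and 216 (ALL-SIL). The expressing libraries thus all lay above 67 CPM, with the widest spread in ALL-SIL. CD44, an adhesion receptor for hyaluronan (ENSG00000026508.21, chromosome 11, 35138870 to 35232402, plus strand), had 0.0648, 0.0596, 0.0730 and 0.0397 CPM in KARPAS-45. It had 207, 243, 213 and 321 in LOUCY, 213, 374, 333 and 421 in DND-41, 55, 67.3, 60.7 and 68.1 in HPB-ALL, 22.6, 32.5, 21.7 and 20.2 in ALL-SIL, and 11.3, 11.4, 12.1 and 12.5 in TALL-1. CD44 thus varied widely among the expressing lines too, with LOUCY and DND-41 highest and overlapping, and TALL-1 lowest.

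UBB, a ubiquitin gene, stood at 0.243 ± 0.0499 CPM in KARPAS-45 and at 726.8 ± 93.7 to 1165 ± 286.6 in the other lines; near-identical ubiquitin copies make its count uncertain. SATB1, a chromatin organiser of thymocytes, went from 0.0846 ± 0.0281 CPM in KARPAS-45 to between 58.5 ± 7.66 (ALL-SIL) and 290.0 ± 72.4 (HPB-ALL). Cytokine signalling was represented by JAK3, the kinase of common gamma chain receptors (2 counts; 17.9 ± 3.97 to 161.1 ± 30.9 CPM elsewhere), and IL4R, the interleukin-4 receptor chain (0.136 ± 0.0496; 19.8 ± 5.35 to 93.9 ± 16.4). SLK, a kinase acting on the cytoskeleton, stood at 0.0881 ± 0.0467 CPM against 77.4 ± 16 to 112.6 ± 11.5, a narrow range among the expressing lines. CD53, a leukocyte tetraspanin, went from 0.249 ± 0.0694 CPM to 58.3 ± 17.4 to 167.5 ± 16.7, and the potassium channel gene KCNA3 from 0 counts to 8.40 to 84.6 CPM. IFI44, an interferon-induced gene, and CASP4, an inflammatory caspase, stood at 0.0443 and 0.0218 CPM, against lowest expressing lines of 9.29 and 12.2. CD79A, a chain of the B-cell receptor complex, was at 0.451 CPM, with 13.4 (TALL-1) to 1797 CPM (DND-41) in the others.

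HPB-ALL lacked XBP1, a transcription factor of the unfolded protein response (ENSG00000100219.17, chromosome 22, 28794555 to 28800597, minus strand). Its libraries held 0.0186, 0, 0.0218 and 0.0212 CPM. The others held 905, 910, 849 and 899 (DND-41), 347, 349, 231 and 290 (ALL-SIL), 267, 246, 237 and 459 (LOUCY), 213, 212, 231 and 232 (TALL-1), and 52.5, 59.7, 58.7 and 52.8 (KARPAS-45). DND-41 was thus the highest and KARPAS-45 the lowest of the expressing lines, without overlap with the rest. LAPTM5, a lysosomal protein of blood cells, stood at 0.324 ± 0.177 CPM in HPB-ALL and at 67.8 ± 6.38 (DND-41) to 367.7 ± 38.6 (KARPAS-45) elsewhere. JUNB, a subunit of the AP-1 transcription factor, had 1 count in HPB-ALL and 10.6 ± 1.35 (KARPAS-45) to 39.0 ± 3.42 CPM (ALL-SIL) in the others. PAXX, a factor of DNA end joining, and AGPAT2, an enzyme of phospholipid synthesis, had 0 counts in HPB-ALL. In 22 of the 43 HPB-ALL genes KARPAS-45 was the lowest of the 5 expressing lines, as it was in 11 of 32 LOUCY genes. It was also lowest in 7 of 20 DND-41, 18 of 66 ALL-SIL and 18 of 68 TALL-1 genes.

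TALL-1 lacked FAS, the death receptor of lymphocytes (ENSG00000026103.25, chromosome 10, 88990582 to 89015785, plus strand), at 0.185, 0.137, 0.106 and 0.339 CPM. The other lines held 24.4, 19.7, 22.7 and 15.2 (LOUCY), 18.1, 17.8, 16 and 15.9 (KARPAS-45), 19, 17.5, 15.3 and 43.0 (HPB-ALL), 17.5, 20.7, 22.8 and 19.4 (DND-41), and 6.32, 6.98, 7.50 and 12.7 (ALL-SIL). ALL-SIL was thus lowest of the expressing lines, and the other 4 overlapped. CDH2, the adhesion protein N-cadherin, and LIN28B, a repressor of let-7 microRNAs, had 0 counts in TALL-1. Their other lines held 55.7 ± 10.4 to 221.7 ± 12.2 CPM (CDH2) and 46.3 ± 9.52 to 108.2 ± 7.55 CPM (LIN28B). TGFBR2, a receptor for TGF-beta, lay near the limit at 0.443 ± 0.187 CPM, against 9.79 ± 0.900 (KARPAS-45) to 127.8 ± 18 (LOUCY). The imprinted gene MKRN3 stood at 0.0238 ± 0.0380 CPM against 19.7 ± 2.47 to 246.0 ± 59.4, and APOBEC3C, a cytidine deaminase that restricts retroviruses, at 0.216 ± 0.173 against 8.18 ± 0.996 to 90.2 ± 15.5.

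DND-41 lacked both CD5 and CD6, neighbouring genes for scavenger-receptor proteins of the T-cell surface. CD5 (ENSG00000110448.11, chromosome 11, 61102395 to 61127852, plus strand) had 0.408, 0.509, 0.243 and 0.171 CPM, 1 of them above the limit of 0.5. The others held 250, 314, 253 and 360 (HPB-ALL), 149, 146, 150 and 145 (LOUCY), 133, 135, 155 and 120 (ALL-SIL), 29.1, 29.5, 34.1 and 23.5 (TALL-1), and 15.8, 16.7, 16.6 and 15.0 (KARPAS-45). The 5 expressing lines formed a high set of 3 lines and a low set of 2, with no library between 34.1 and 120 CPM. CD6 stood at 0.214 ± 0.0285 CPM in DND-41 and at 43.4 ± 2.32 (KARPAS-45) to 345.0 ± 65.1 (HPB-ALL) elsewhere, with the same lines lowest and highest as for CD5. RIN3, a Rab5 exchange factor, had 2 counts in DND-41 (58.0 ± 4.75 to 218.2 ± 13.1 CPM elsewhere), SPINT2, an inhibitor of serine proteases, had 1 count (22.0 ± 2.55 to 196.1 ± 16.3), and FNIP2, a folliculin partner, 9 counts (38.6 ± 1.88 to 116.4 ± 47.4).

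ALL-SIL lacked CDKN2A, the gene of the tumour suppressors p16 and p14ARF (ENSG00000147889.18, chromosome 9, 21967753 to 21995301, minus strand), with 0, 0, 0 and 0.0443 CPM. The other libraries held 278, 260, 250 and 191 (DND-41), 209, 132, 145 and 124 (HPB-ALL), 96.9, 89.7, 89.5 and 60.9 (LOUCY), 52.6, 54.8, 50.4 and 36.8 (TALL-1), and 13.1, 14.1, 10.9 and 12.7 (KARPAS-45). The antisense gene CDKN2B-AS1, which overlaps its start by 523 bases, had 0 counts in ALL-SIL and 5.08 ± 0.688 to 35.2 ± 5.61 CPM elsewhere. MGMT, which repairs alkylated guanine, had 0 counts (9.64 ± 2.71 to 30.9 ± 3.46 CPM elsewhere), as had PIM3, a survival kinase (45.3 ± 5.58 to 166.4 ± 16.1), and HES4, a transcription factor of the Hes family (6.38 ± 1.65 to 244.3 ± 36.2). IL6ST, the shared receptor chain gp130, PDK1, a kinase that restrains pyruvate dehydrogenase, and the transcription factor TCF4 were at 0 counts too. TP53BP2, a p53-binding protein, had 1 count in ALL-SIL and 52.0 ± 4.79 to 152.9 ± 7.63 CPM in the other lines.

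**Figure D2:**
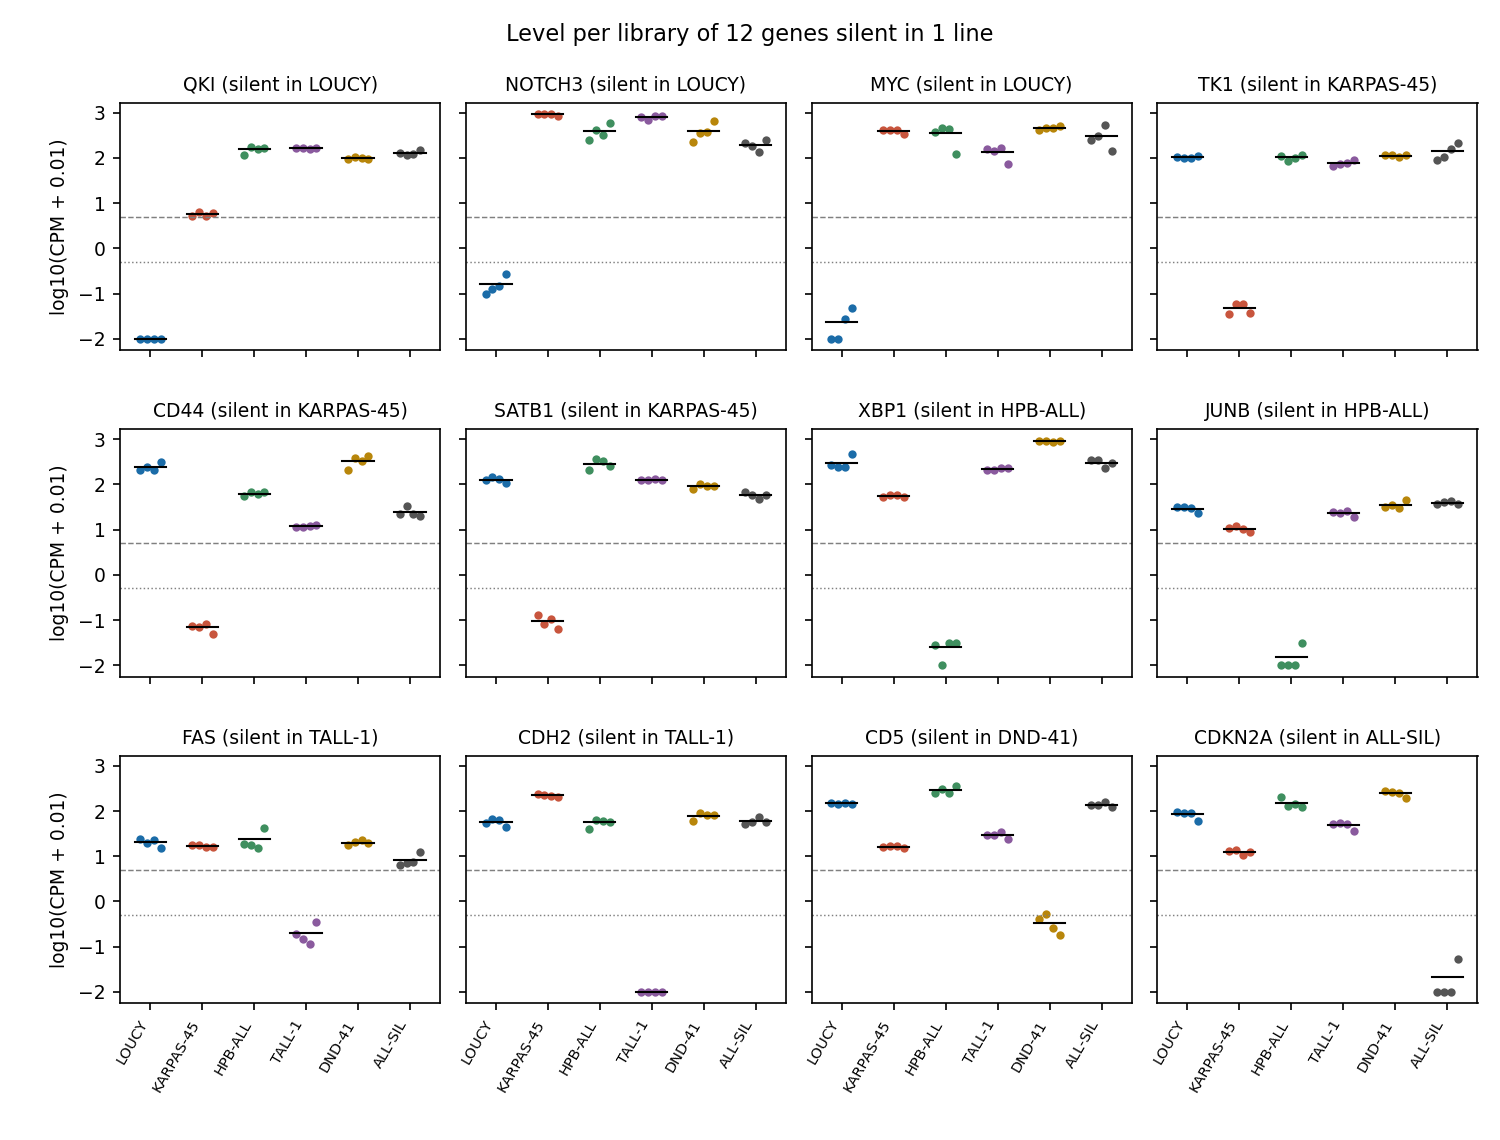
Level of QKI, NOTCH3, MYC, TK1, CD44, SATB1, XBP1, JUNB, FAS, CDH2, CD5 and CDKN2A in the 24 libraries of the 6 lines (log10 of CPM + 0.01; each point is a library, each short bar a line's mean CPM, dotted and dashed lines 0.5 and 5 CPM). In each panel the 4 libraries of the silent line lie apart from all others, and the expressing lines differ among themselves, for CD44 from 11.3 to 421 CPM.

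Members silent in the same line sometimes lay side by side. Within 1 Mb on a chromosome there were 36 pairs of adjacent members, which took in 65 of the 319 genes: 14 pairs in KARPAS-45, 10 in HPB-ALL, 4 each in TALL-1 and ALL-SIL, 3 in LOUCY and 1 in DND-41. On the distal long arm of chromosome 20, HPB-ALL lacked 6 genes in a row of members: SLCO4A1, PPDPF, ZNF512B, SAMD10, TCEA2 and RGS19, the last 4 within short gaps of 4.2, 69.8 and 0.8 kb. PPDPF had 2 counts in HPB-ALL and 56.5 ± 10.4 to 254.9 ± 12.9 CPM elsewhere, while RGS19, a regulator of G-protein signalling, had 1 count and 21.1 to 167.4 CPM elsewhere. PRPF6, a splicing factor gene 1.1 kb from SAMD10 and inside this row, was still at 48.3 CPM in HPB-ALL, below the other lines (101.2 to 234.9).

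In KARPAS-45, TK1 and AFMID face away from each other with starts 84 bases apart, and KCNA3, CD53 and LRIF1 follow each other on chromosome 1 with gaps of 196.2 and 47.3 kb. ALL-SIL lacked ZNF667, its antisense gene ZNF667-AS1 and ZNF471 in a stretch of chromosome 19, and TALL-1 lacked the homeobox gene IRX5 and the noncoding gene CRNDE, whose starts lie 1.7 kb apart on chromosome 16. Pairs that overlap (SATB1 with SATB1-AS1 by 564 bases, HEIH with LINC00847 by 648, CDKN2A with CDKN2B-AS1, ZNF667 with ZNF667-AS1 by 815) share reads that cannot be told apart, since the strand setting of the counting is not given.

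Neighbours of the members were then compared, since the rule did not choose them. They were the 3 nearest tested genes on each side within 1 Mb that were no members, and a neighbour was called lower when its log2 difference between the silent line and the mean of the other 5 passed an edgeR adjusted p of 0.05 with at least a 2-fold fall. Of 1576 neighbours, 497 were lower in the silent line (31.5%) and 177 higher (11.2%). The same rule called 13.3% of all gene and line combinations lower and 20.6% higher. The share lower was 43.9% in LOUCY (72 of 164; 15.1% of all tested genes), 35.8% in KARPAS-45 (155 of 433; 23.5%), 28.6% in TALL-1 (92 of 322; 11.5%), 28.4% in ALL-SIL (95 of 334; 11.4%), 26.5% in DND-41 (26 of 98; 9.03%) and 25.3% in HPB-ALL (57 of 225; 9.3%). In each line the neighbours were called lower more often than all tested genes, as a description, since neighbours of nearby members are shared and genes are not independent.

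Many neighbours are weakly expressed, so those with a mean of at least 5 CPM over the other 5 lines were taken apart. Of 855 such neighbours, 217 were lower (25.4%, against 11% of all gene and line combinations at that level, members left out) and 62 higher (background 12.3%). Most of the expressed neighbours, 657 (76.8%), were still at or above 5 CPM in the silent line, and 134 lay below 0.5. Members are not among these neighbours, so nearby genes that met the rule do not enter these counts. The same shares over all genes were not computed. By line the share of expressed neighbours called lower was 40.9% in LOUCY (36 of 88; 10.4% of all tested genes at that level), 26.9% in KARPAS-45 (65 of 242; 17.6%), 23.6% in ALL-SIL (41 of 174; 9.86%), 23.3% in DND-41 (14 of 60; 7.6%), 21.4% in HPB-ALL (27 of 126; 10.6%) and 20.6% in TALL-1 (34 of 165; 9.6%). Pooled over lines, the share lower went with distance, from 42.3% of 97 neighbours at up to 10 kb and 26.1% of 203 at 10 to 50 kb to 24.3% of 280 at 50 to 200 kb and 17.5% of 229 beyond. Overlapping neighbours, whose reads may be shared with the member, were lower in 32.6% of 46 cases.

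**Figure D3:**
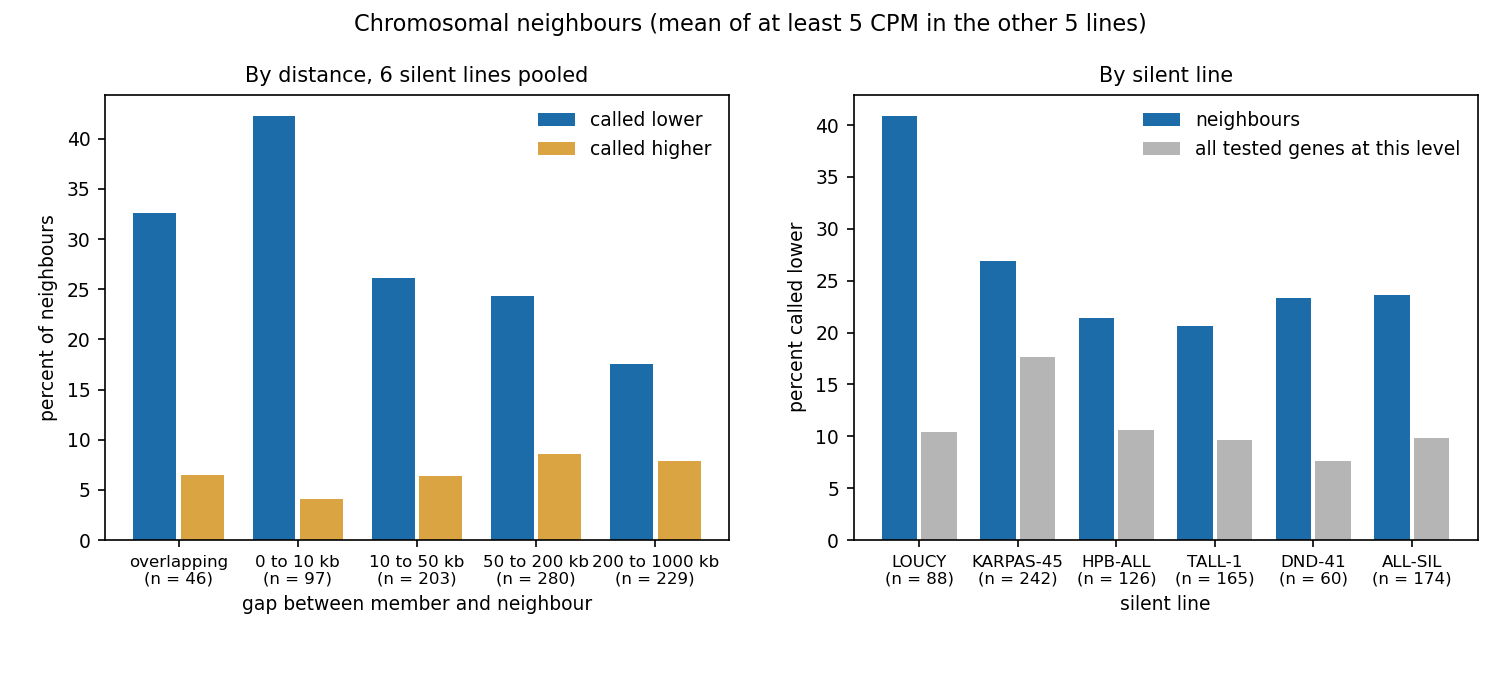
Percent of neighbours with at least 5 CPM over the other lines that were called at least 2-fold lower (blue) or higher (gold) in the silent line by distance from the member (left), and percent called lower by silent line (right; blue, neighbours; grey, all tested genes at that level). The share lower is 42.3% within 10 kb and 17.5% beyond 200 kb, and LOUCY has the highest share (40.9% against 10.4%).

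Pairs with facing starts were taken apart from the other neighbours. Among 45 neighbours transcribed away from a member with starts within 1 kb, 36 were lower (80.0%), against 30.1% of the other 1531. Facing genes that overlap the member were not set apart, and their reads may be shared with it. Only 13 of the 45 had at least 5 CPM over the other lines: 8 of these were lower, 2 were higher, and 8 were still at or above 5 CPM in the silent line. WDR12, a ribosome biogenesis factor that starts 81 bases from NBEAL1, stood at 93.9 CPM in KARPAS-45 against 30.3 to 57.8 in the other lines (log2 difference 1.46, SE 0.13, edgeR adjusted p = 2.93e-10), while NBEAL1 had 0.0470 CPM there. TBC1D5, which starts 207 bases from SATB1-AS1, was at 205.9 CPM against 44.5 to 121.9 (log2 difference 1.42, SE 0.08, edgeR adjusted p = 9.42e-15). NAA60, an acetyltransferase that starts 58 bases from ZNF597, was at 60.9 CPM in HPB-ALL, within the 44.3 to 108.3 of the other lines, while the imprinted ZNF597 had 2 counts. Of the pairs whose stretches are printed above, NBEAL1 and ZNF597 were thus silent while WDR12 and NAA60 were not, whereas TK1 and AFMID were silent together. Counts are per gene, so which start a gene used was not tested.

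ISG15, an interferon-induced gene 966 bases from HES4, was lower in ALL-SIL (16.9 CPM against 26.9 to 51.5; log2 difference -1.10, SE 0.22, edgeR adjusted p = 0.000119) without being silent. FAM13A, 102 bases from TIGD2, was silent with it in ALL-SIL (0 counts; 1.53 to 17.4 CPM elsewhere), as was OPRL1, 185 bases from RGS19, in HPB-ALL (0.005 CPM; 1.09 to 18.8). QKI's facing partner, the noncoding gene CAHM with a start 40 bases away, had 0 counts in LOUCY and 0 to 2.85 CPM elsewhere, and was not called.

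Neighbours of the named members differed from locus to locus. Around CDKN2A, MTAP, the gene of an enzyme of methionine salvage 30.1 kb away, was lower in ALL-SIL but not absent, at 6.43 CPM against 57.5 to 104.8 (log2 difference -3.58, SE 0.18, edgeR adjusted p = 7.9e-15). FOCAD, farther out, was at 16.9 CPM against 13.7 to 122.1 (log2 difference -1.56, SE 0.12, edgeR adjusted p = 2.09e-11), and KLHL9 was at 105.3 and not called. CDKN2B had 0 counts in ALL-SIL and 0 to 7.03 CPM in the others. Copy number was not measured.

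Around the LOUCY genes, CD1D and CD1E had 0 counts in LOUCY with 2.93 to 48.3 and 2.19 to 1259 CPM elsewhere, and both were called lower. CD8A (0.217 CPM; 2.07 to 442.6 elsewhere) and CD8B (0.004; 0.679 to 530.3), co-receptor genes of cytotoxic T cells, lie beside RGPD1, whose near-identical copies leave its own count uncertain. CCR9, a chemokine receptor of thymocytes beside SLC6A20, stood at 0.014 CPM against 2.64 to 93.6. USP45, a deubiquitinase gene 20.7 kb from CCNC, stood at 0.009 CPM against 0.399 to 33.1, so that several genes of that stretch were low. By contrast CUL1, 6.3 kb from EZH2, was at 64.6 CPM and not called, and PDIA4 was higher (284.3 CPM; log2 difference 1.06, SE 0.18, edgeR adjusted p = 1.16e-05). ILVBL, 33.3 kb from NOTCH3, was at 53.6 CPM (39.9 to 53.9 elsewhere) and was not called either.

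In KARPAS-45, CASP1 (0.003 CPM; 0.981 to 23.4 elsewhere) and CARD16 (0 counts; 1.65 to 20.2), genes of the inflammasome family cluster, were low together with CASP4. IL21R, a receptor gene 37.4 kb from IL4R, was lower too (0.258 CPM; 1.51 to 10.6). Beside TK1, SYNGR2, whose end lies 0.5 kb away, was at 65.5 CPM and not called, TMC8 was lower (89.9 against 187.1 to 413.6 CPM) and BIRC5, the gene of the mitotic protein survivin, was higher (486.0 against 148.0 to 234.2). PDHX (38.0 CPM) and APIP (47.8), next to CD44, and NCOR1 (267.4), near UBB, lay within the range of the other lines and were not called. In HPB-ALL the peroxidase gene PRDX2, 3.5 kb from JUNB, was at 3.07 CPM against 55.2 to 335.5 (log2 difference -6.14, SE 0.24, edgeR adjusted p = 1.96e-17). HOOK2, which overlaps JUNB and MAST1, was at 1.14 against 5.99 to 20.6, whereas CCDC117, 5.3 kb from XBP1, was at 76.8 (48.0 to 127.5) and not called. In TALL-1, APOBEC3B was at 0.022 CPM against 0.254 to 69.1 beside APOBEC3C, and STAMBPL1 beside FAS was at 10.1 against 11.8 to 87.3 (log2 difference -1.50, SE 0.12, edgeR adjusted p = 6.18e-11). In DND-41, VPS37C, 2.4 kb from CD5, was lower at 5.28 CPM against 4.80 to 19 but above the lowest line.

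Lists of genes with related functions that held a member were read in the same fits, members left out. Over 30 combinations of list and line, 194 of 903 tested combinations of gene and line were at least 2-fold lower and 213 higher. Over all combinations of gene and line 13.3% were lower and 20.6% higher. In LOUCY the T-cell surface list had 15 of 37 genes lower and 13 higher, and the T-lineage transcription factor list 5 of 28 lower and 8 higher, so the direction was mixed in both. The list of T-lymphocyte markers, which held TCF7, had 4 of 10 lower (CD2, CD7, CD247 and BCL11B) and 0 higher, with a median log2 difference of -0.76. The single genes that follow were chosen after their values were seen. NOTCH1, the Notch receptor most often mutated in T-ALL, was lower in LOUCY (59.5 CPM against 307.2 to 751.8; log2 difference -3.17, SE 0.17, edgeR adjusted p = 8.28e-15). HES1, a Notch target (3.90 against 12.8 to 110.7 CPM), BCL11B, a commitment factor of T cells (21.1 against 76.2 to 310.5), and CD4 (0.474 against 4.60 to 528.2) were lower too. Among the higher ones were the integrin chains ITGA4 (898.9 against 128.9 to 549.5 CPM) and ITGB7 (42.3 against 0.011 to 4.17). The transcription factors ID2 (51.3 against 0.486 to 31.6 CPM) and ZBTB16 (12.9 against 0 to 4.20) were higher as well. Of the 26 listed T-ALL oncogenic transcription factors, 18 other than MYC passed the filter on low counts. In LOUCY 13 of these were higher and 0 lower, with a median log2 difference of 7.42. The median was 6.88 from CPM with each line's level taken as at least 3 counts. That list is of genes known to be activated in subsets of T-ALL. Among them MYCN, a relative of MYC, stood at 85.3 CPM in LOUCY and at 0 counts in the other lines, as did HOXA9 at 62.5, and MEF2C was at 134.2 against at most 0.005. Such genes passed the filter through LOUCY alone and could only come out higher. How many of the 13 did so was not counted, so the count and the median of this list carry no test. Of the STAR family, to which QKI belongs, KHDRBS3 was higher in LOUCY (28.5 CPM against at most 0.116), and neither of the other tested members was called. For all genes in LOUCY, 15.1% were lower and 22.7% higher, with a median log2 difference of 0.03.

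In KARPAS-45 the innate sensing and interferon list, which held IFI44, had 28 of 46 genes lower and 2 higher, with a median log2 difference of -1.39, or -1.68 with levels taken as at least 3 counts (all genes 23.5% lower, 22.9% higher, median -0.07). IFIH1, a sensor of double-stranded RNA, had 0.003 CPM against 4.18 to 19.2, TRIM22, an antiviral ligase, 0.047 against 4.69 to 88.2, and CGAS, a DNA sensor, 0.130 against 0.372 to 55.4. MX1, an interferon-induced antiviral gene, was among the higher ones (48.5 against 0.718 to 13.2 CPM). The T-cell surface list, which held CD44, had 20 of 37 lower and 10 higher, the B-cell marker list, which held CD79A, 4 of 8 lower and 0 higher. The nucleotide and amino acid list, which held TK1 and DPYD, had 4 of 46 lower and 16 higher, and the cytokine receptor, JAK and STAT list 11 of 36 lower and 10 higher.

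In the other lines the lists that held a member were mixed. The counts lower and higher were 14 and 17 of 37 T-cell surface genes in DND-41, which lacked CD5 and CD6 (all genes 9.03% lower, 18.9% higher), and 8 and 5 of 41 tumour suppressors in ALL-SIL, MTAP among the lower (all genes 11.4% and 18.1%). In ALL-SIL 1 of 44 DNA repair genes other than MGMT was lower and 3 higher, and 3 of 38 glycolysis and mitochondrial genes other than PDK1 lower and 1 higher. In TALL-1 the apoptosis list that held FAS had 6 of 33 lower and 6 higher, the imprinted genes 10 of 35 and 7, and the adhesion list that held CDH2 8 of 28 and 7 (all genes 11.5% and 16.8%). In HPB-ALL 5 of 35 imprinted genes other than ZNF597 were lower and 9 higher (all genes 9.3% and 24%).

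Libraries that the rule did not use gave the levels of the members in further cells, though these come from separate tables and other kinds of preparation. In the Jurkat control libraries 255 of 319 members (79.9%) were at or above 5 CPM and 34 (10.7%) below 0.5. Of the 8042 genes at or above 5 CPM in all 6 lines, 0.211% were below 0.5 there. In the control libraries labelled HPB-ALL, 227 members (71.2%) were at or above 5 and 64 (20.1%) below 0.5, against 1.85% of those genes. Members were thus below 0.5 CPM more often in both, with the largest counts among KARPAS-45 genes in Jurkat (14 of 90) and LOUCY genes in the libraries labelled HPB-ALL (16 of 32).

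Named members took different positions there. Jurkat had 0 counts of CDKN2A, CDKN2B-AS1 and ZNF471, which ALL-SIL lacked as well, and 0.0970 ± 0.0550 CPM of CD44, which KARPAS-45 lacked (SD, n = 4). It expressed NOTCH3 (13.7 ± 6.82 CPM), MYC (267.4 ± 115.3), EZH2 (174.5 ± 26.2), FAS (28.9 ± 1.09), CD5 (35.1 ± 9.90), MGMT (29.3 ± 4.02), TK1 (31.9 ± 8.26) and XBP1 (46.2 ± 15.7). The libraries labelled HPB-ALL lacked TCF7 (0.199 ± 0.0290 CPM), NOTCH3 (0.346 ± 0.0850), CD5, MGMT, CDH2 and LIN28B (0 counts each). They expressed MYC (892.6 ± 20.9), CD44 (478.4 ± 12.1), LAPTM5 (898.9 ± 89.9), XBP1 (276.4 ± 9.64) and JUNB (68.3 ± 11.7), the last 3 of which were silent in untreated HPB-ALL.

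**Figure D4:**
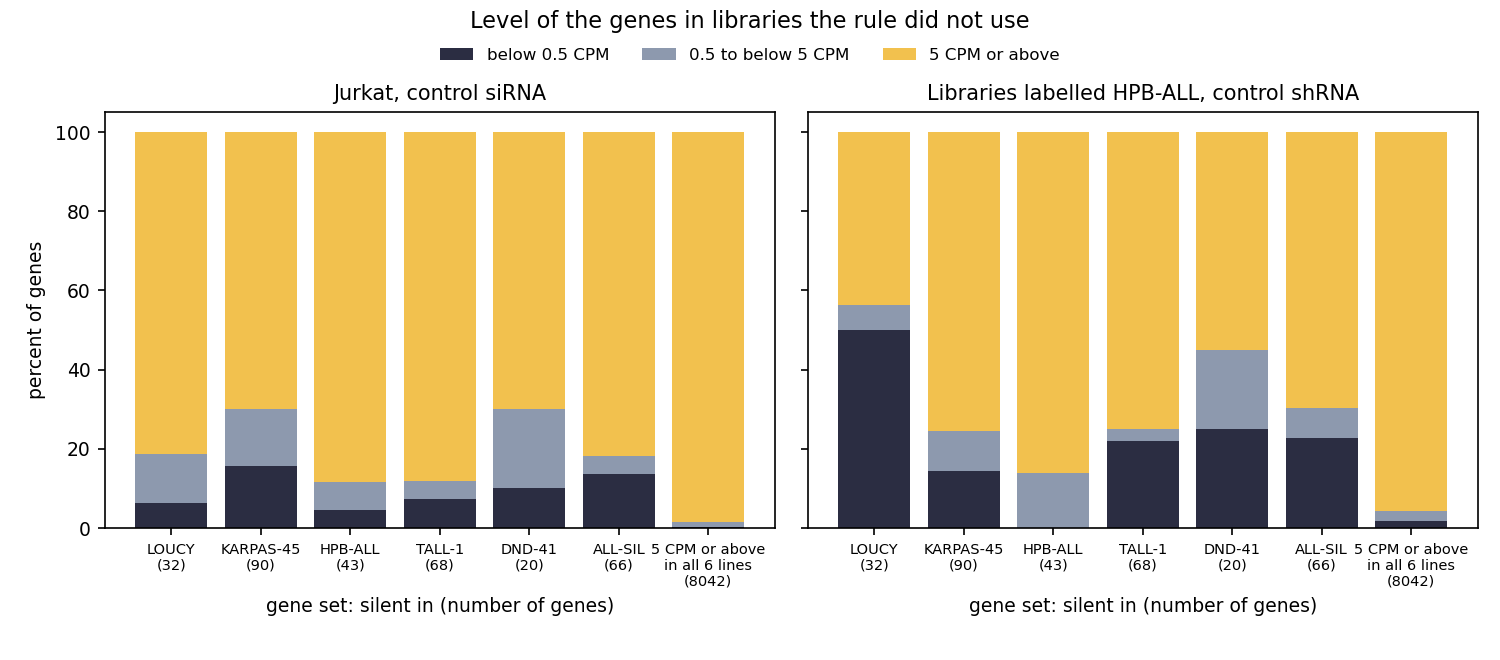
Percent of genes whose mean CPM over the 4 control libraries was below 0.5, from 0.5 to below 5, or 5 and above (stacked bars), in Jurkat (left) and in the libraries labelled HPB-ALL (right), for the genes silent in each line and the 8042 genes at or above 5 CPM in all 6 lines. In the libraries labelled HPB-ALL the dark lower part of the bar is missing for the 43 genes silent in untreated HPB-ALL and covers 16 of the 32 LOUCY genes.

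With the QKI siRNA in Jurkat, QKI alone among the members passed the test in the main fit, which did not pair the libraries. It had 157, 188, 129 and 131 CPM in the control libraries and 26.4, 17.3, 17.0 and 24.3 with the siRNA, with no overlap (log2 fold change -2.79, SE 0.17, edgeR adjusted p = 0.000129). Of 319 members, 293 passed the filter on low counts; QKI was the 1 of them called (0.341%) and the 1 called among all genes tested (0.0047%). At an unadjusted p under 0.05 (edgeR) there were 6 of the 293, QKI and FSD1L among them, which is fewer than the 1 in 20 that chance gives. The share of all genes at that limit was not computed. With the replicate number as a block, FSD1L, a TALL-1-silent gene related to a centrosomal fibronectin-domain protein, was also called: it went from 20.9, 18.7, 10.6 and 9.93 CPM to 42.8, 27.2, 18.7 and 17.7 (log2 fold change 0.85, SE 0.08, edgeR adjusted p = 0.000902). Its groups overlap, but in each pair the siRNA library was higher. The block called 0.0423% of all genes.

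In the libraries labelled HPB-ALL more members passed the test, with small changes. QKI fell from 106.6, 100.9, 102.8 and 105.1 CPM to 54.5, 55, 55.7 and 58.2 (log2 fold change -0.90, SE 0.03, edgeR adjusted p = 1.1e-07). Of 262 members tested, 96 were called (36.6%), 39 lower and 57 higher, against 23.2% of all genes and 29.6% of genes at or above 5 CPM in all 6 lines. The median log2 fold change over the tested members was 0.01. With the replicate block 75 members were called (17.0% of all genes). The only member past a 2-fold change was STRA6, at 0.172 ± 0.0158 and 0.0766 ± 0.0211 CPM (SD, n = 4), which is under the limit for silence in both groups.

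EZH2 rose from 41.8, 40.3, 44.0 and 40.4 CPM to 57.1, 51.4, 55 and 59.6 (log2 fold change 0.42, SE 0.05, edgeR adjusted p = 9.31e-05), and FAS from 11.1, 10.6, 11.1 and 10.5 to 13.9, 14.2, 13.7 and 14.6 (log2 fold change 0.38, SE 0.04, edgeR adjusted p = 9.17e-05), neither with overlap between groups. YOD1, a deubiquitinase gene (log2 fold change 0.41, SE 0.04), CCDC26, a noncoding gene downstream of MYC (0.44, SE 0.05), RGS19 (0.32, SE 0.03) and FNIP2 (0.32, SE 0.04) rose too. BACE2, a secretase gene, fell by 0.72 on the log2 scale (SE 0.07), JAZF1, a zinc-finger gene, by 0.52 (SE 0.04), SAMD9L, an antiviral gene, by 0.44 (SE 0.06) and KCNA3 by 0.36 (SE 0.05), with edgeR adjusted p from 1.48e-05 to 0.000306. In Jurkat none of these 10 passed, with log2 fold changes between -0.20 and 0.08. SARDH and MYO7B fell by more than BACE2 in the libraries labelled HPB-ALL, by 0.86 and 0.75 on the log2 scale. Their control means there were low, at 0.772 and 2.77 CPM. MYC, XBP1 and CDKN2A did not pass in the libraries labelled HPB-ALL, at log2 fold changes of 0.07, 0.09 and 0.08. Of the 43 genes silent in untreated HPB-ALL, 12 rose and 3 fell in these libraries, while the rest did not pass. Over all genes tested 12.8% were higher and 10.4% lower, and over genes at or above 5 CPM in all 6 lines 19.5% and 10.1%.

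**Figure D5:**
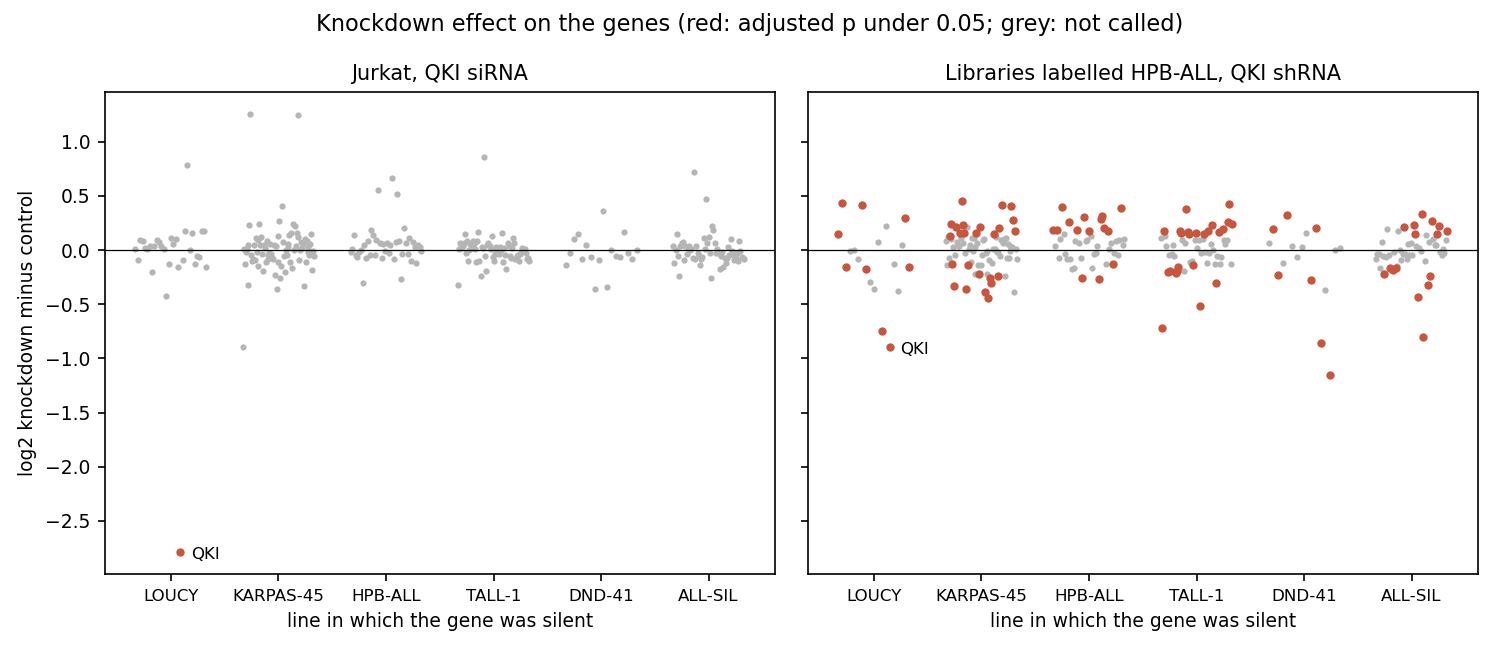
Log2 fold change (knockdown against control, edgeR) of the members tested in Jurkat (293) and in the libraries labelled HPB-ALL (262), by the line in which they were silent; each point is a gene, red when its adjusted p was under 0.05 and grey otherwise. In these fits without pairing QKI is the 1 member called in Jurkat (-2.79), and in the libraries labelled HPB-ALL the called members lie mostly within 1 unit of 0.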

How the data were processed

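RNA of 40 libraries in 10 groups of 4 was sequenced, and the authors deposited raw counts per gene in 3 tables (6 untreated lines, Jurkat knockdown, knockdown labelled HPB-ALL). The submitters' processing notes name Trimmomatic 0.39, STAR 2.7.11b and GRCh38; the program that counted reads, its annotation and its strand setting were not given in the sources used here. In the table labelled HPB-ALL, 13.0% to 15.1% of reads name no gene and were left out. Library totals were 44.1 to 84.0 M counts in the lines, 68.4 to 134.2 M in Jurkat and 81.0 to 134.9 M in the libraries labelled HPB-ALL; no 2 libraries were identical, and chi-square per degree of freedom between replicates was at least 12.7. A pair of LOUCY columns carries no number of its own and was used as replicates without one; the Jurkat control columns are headed shNTC and were read as the labels' control siRNA.

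The members, gene lists and comparisons were chosen with earlier results of these data known. CPM used plain column totals and levels were compared within a table. Symbols were matched for 62700 of 62754 genes, and GENCODE 29 (GRCh38) gave positions for 58261 of them; 6 members without a position have no neighbours. Differences were tested on the counts by the quasi-likelihood test of edgeR 4.0.16 (R 4.3.3) after filterByExpr and TMM scaling, with Benjamini-Hochberg adjustment over all genes tested and a threshold of 0.05. A single fit over the 24 untreated libraries compared each line with the mean of the other 5, and each knockdown had a fit of its own (8 libraries). Calls in the lines also needed a 2-fold difference. The fits were also run on simulated counts with a single dispersion, equal means apart from the changed genes and no replicate effect. These settings are simpler than the data, so the simulation does not show how the fits perform on them. Figures were drawn with matplotlib 3.10.9 from tables made in Python 3.11.15 with pandas 2.3.3.

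Named are QKI, per line the 6 members with the highest lowest expressing line, members in a list or with another member within 1 Mb, those nearest the limits, those called in a knockdown, and near neighbours called lower; others (LUNAR1, MAL, CASP4, TCF4, and neighbours or list genes given for contrast) were chosen after their values were seen, and not every gene the rule picks is printed. Lists held 25 sets of genes, of which 17 contain a member. Groups carry the same replicate numbers. In Jurkat, deviations from the group mean correlated between same-numbered control and siRNA libraries (0.337 to 0.556). The main Jurkat fit did not use this pairing, and the replicate block, which does, was run as an alternative. What a pair shares is not in the labels. Alternatives were other limits for silence and expression, RLE size factors, DESeq2 1.42.0, no filter on low counts, the replicate block, fewer neighbours and each library left out.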

Additional observations from a re-analysis of the deposited data

Results flagged for a closer look

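Among 52 groups of 4 libraries, 2 held a library that stood apart, where chance gives 1 in 20. The groups were those of genes given library by library in the untreated lines, and of QKI alone in the knockdowns. Groups with at most 3 counts in sum are in the 52 but could not be examined. XBP1 in the fourth LOUCY library was at 458.9 CPM, while the others lay at 237.4, 246.0 and 266.7 (gap of 0.868 of the whole range, past Dixon's 95% limit). FAS in the fourth HPB-ALL library was at 43.03 CPM, while the others lay at 15.29, 17.5 and 19.02 (gap of 0.865). Neither library touches the silence of the gene, which was in another line. Both were libraries numbered 4, and some genes outside those groups also differed there. TREML2 had 5856 counts in that library of HPB-ALL, against 1007 to 1206 in the others. MYC had 5843 there against 20185 to 21764, and 3601 in TALL-1 against 8466 to 10369. In DND-41 MYC had 24194 in library 4, within the 18143 to 24764 of the others. Whether the libraries numbered 4 share a difference was not tested.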

How the results depend on the processing

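The number of genes depends on the limit for expression. With at least 10 CPM in each expressing line, 190 of 319 genes remained: 18 in LOUCY, 57 in KARPAS-45, 26 in HPB-ALL, 40 in TALL-1, 11 in DND-41 and 38 in ALL-SIL. With silence set below 0.2 CPM, DND-41 kept 12 of 20. Over all 6 alternatives the number of genes ran from 190, with the limit of 10 CPM, to 429. They include TMM-scaled levels and a rule that every library must meet. Leaving out a library at a time gave 316 to 322 genes: 32 to 35 in LOUCY, 87 to 91 in KARPAS-45, 42 to 44 in HPB-ALL, 66 to 71 in TALL-1, 19 to 22 in DND-41 and 64 to 68 in ALL-SIL. Neighbours called lower numbered 229 of 575 (39.8%) when 1 gene a side was taken, 489 of 1576 (31.0%) with the replicate block, 613 with DESeq2, 429 without the filter (24.5%; 7.43% of all genes) and 489 to 498 with a library left out; listed genes lower numbered 190 to 196 with a library left out, 191 with the replicate block and 243 with DESeq2.

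In Jurkat the replicate block called 2 members, and leaving out a library called 1 each time. In the libraries labelled HPB-ALL the alternatives called 75 (replicate block) to 97 members and leaving out a library 80 to 92; there the numbers did not pair the libraries (correlations -0.179 to 0.045), and in the untreated lines they ran from -0.124 to 0.388. Of 360 recomputed values of single genes in the knockdowns, 357 kept their direction and side of the threshold. The others concerned FSD1L: it passed in Jurkat with the replicate block (adjusted p = 0.000902, edgeR) and missed in the libraries labelled HPB-ALL with the block (0.0521) and without QKI shRNA replicate 2 (0.0536). DESeq2 gave no adjusted p for 8 members in Jurkat and 58 in the libraries labelled HPB-ALL. Depth limits what silence means: 160 of the 319 genes had at most 3 counts in the 4 libraries of their silent line, and in those a level cannot be told from 0.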
